A study of Homo sapiens with 36 samples.

Results

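Prostaglandins and leukotrienes are lipid signals that monocytes make from arachidonic acid. The 10 genes described here are the steps and receptors of that pathway named for this account by symbol: PLA2G4A, PTGS1, PTGS2, PTGES, PTGES2, PTGES3, PTGER2, PTGER4, ALOX5 and ALOX5AP. Each symbol matched 1 Ensembl gene ID, so all 10 were found among the 57500 gene IDs of the count files, and all 10 were among the 17720 genes with enough counts to test. Cytosolic phospholipase A2 releases arachidonic acid from membranes. Cyclooxygenases convert it to prostaglandin H2, from which prostaglandin E synthases make prostaglandin E2, and prostaglandin E2 acts on receptors such as EP2 and EP4 that raise cyclic AMP. In the other branch 5-lipoxygenase, helped by its activating protein, starts leukotriene synthesis, and monocytes and macrophages are well-known sources of both classes of lipid.

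RNA was measured in THP-1 cells, a human monocytic line of leukaemic origin. Each of 3 stably transduced lines carried a short hairpin RNA, namely a non-target hairpin (shNT), 1 against NR4A2 (shNR4A2) or 1 against NR4A3 (shNR4A3), NR4A2 and NR4A3 being orphan nuclear receptors. Every line was kept for 4 h in pH-buffered medium at 5% CO2 (normocapnia) or 10% CO2 (buffered hypercapnia). Lipopolysaccharide (LPS, a bacterial cell wall component that activates monocytes) was either left out or present at 2.5 µg/ml for the last 2 h. Each of the 12 conditions had 3 libraries, 36 in all. All groups thus share the THP-1 background and carry a hairpin, and 1 line stands for each hairpin, so hairpin and line cannot be told apart. The labels do not say whether replicates were separate cultures. The study's figure legends speak of 3 individual experiments, without saying whether the replicate numbers of different conditions mark the same experiment. The p-values measure only the spread between these libraries.

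The libraries held 16171161 to 23929138 counts each, with a median of 19639071. All 10 monocytic markers examined (LYZ, SPI1, CD33, CD68, ITGAM, CSF1R, FCGR1A, CEBPA, CD14 and MPO) were detected, with a summed level of 972 to 3378 TPM, reads per gene length scaled to the same total in each library. The summed levels of other marker lists were 1.13 to 7.23 TPM for T cells, 3.88 to 13.6 TPM for B cells, 0.720 to 2.42 TPM for epithelial cells and 0 to 1.21 TPM for red cells and platelets. A list for fibroblasts and endothelial cells reached 74.6 to 290 TPM through PECAM1, which monocytes also express. As a check of the labels, NR4A2 was lower in shNR4A2 than in shNT cells in all 4 states (log2 fold change -0.91 to -1.67). NR4A3 was lower in shNR4A3 cells in 3 states (log2 fold change -0.82 to -2.47), while at 10% CO2 without LPS the libraries overlapped (log2 fold change -0.39 ± 0.49, adjusted p = 0.736). Untargeted receptors differed too at 10% CO2. With LPS, NR4A3 was higher in shNR4A2 cells (0.57 ± 0.11, adjusted p = 0.00296) and NR4A2 lower in shNR4A3 cells (-0.32 ± 0.08, adjusted p = 0.0166). Without LPS, NR4A1 was lower in shNR4A3 cells (-0.76 ± 0.16, adjusted p = 0.00566). In the main test the other differences of untargeted NR4A genes from shNT had adjusted p above 0.05.

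The sequences just upstream of 3 of the genes are shown because these genes carry the main results: PTGS2 and PTGER2 for LPS, and PLA2G4A for CO2. They come from RefSeq on GRCh38.p14, read 5′ to 3′ on each gene's strand and ending just before the counted gene model, at chr1:186680428-186680673 on the minus strand for PTGS2, chr14:52314062-52314304 on the plus strand for PTGER2 and chr1:186828699-186828948 on the plus strand for PLA2G4A. Capitals mark the matches to the motifs searched on both strands:
PTGS2: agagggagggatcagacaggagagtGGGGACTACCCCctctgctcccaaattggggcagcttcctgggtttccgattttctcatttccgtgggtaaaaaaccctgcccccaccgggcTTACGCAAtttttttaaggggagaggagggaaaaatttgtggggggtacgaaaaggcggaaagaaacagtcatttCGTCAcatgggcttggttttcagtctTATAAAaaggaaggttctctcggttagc
PTGER2: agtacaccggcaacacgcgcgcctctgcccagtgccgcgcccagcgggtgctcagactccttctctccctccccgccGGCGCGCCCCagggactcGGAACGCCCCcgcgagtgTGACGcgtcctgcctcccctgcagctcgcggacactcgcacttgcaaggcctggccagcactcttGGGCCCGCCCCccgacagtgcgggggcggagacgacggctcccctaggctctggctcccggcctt
PLA2G4A: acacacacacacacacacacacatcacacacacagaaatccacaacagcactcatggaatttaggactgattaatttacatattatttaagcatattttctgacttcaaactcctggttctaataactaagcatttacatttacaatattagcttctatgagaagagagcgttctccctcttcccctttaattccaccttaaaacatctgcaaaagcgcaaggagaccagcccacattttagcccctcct

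The motifs were the NR4A monomer element NBRE (AAAGGTCA), a loose NF-κB-type pattern (GGG and CC with any 5 bases between them), the stricter κB consensus, the cyclic AMP response element (TGACGTCA) and the 5 bases at its start (TGACG), a C/EBP-type pattern (TTNNGNAA) and the TATA box (TATAAA). Every κB consensus match is also a match to the loose pattern, and the 5-base letters lie within the full cyclic AMP element. Counted from the transcription start, the PTGS2 window held overlapping loose κB matches between -225 and -214, a C/EBP-type match at -133 to -126, the 5-base letters on the minus strand at -58 to -54 and a TATA box at -32 to -27. The PTGER2 window held 4 loose κB matches, among them a κB consensus match at -155 to -146, and the 5-base letters at -137 to -133. The PTGER4 window, not printed because it lies within the counted gene model, held a κB consensus match at -244 to -235. The PTGES3 window also held a κB consensus match, at -121 to -112, among 4 loose κB matches, and the 5-base letters at -21 to -17. Loose κB matches were found in windows of PTGS1, PTGES and PTGES2 too, and C/EBP-type matches in windows of PTGS1 and PTGES2. A TATA match lay in a PTGS1 window. Any link between motifs and responses was not tested. None of these motifs was matched in the PLA2G4A or ALOX5AP window. Of 34943 promoter windows of 250 bases, 54.4% held the loose κB pattern, 9.95% the κB consensus, 33.2% the C/EBP-type pattern, 21.2% the 5-base letters, 10.8% the TATA box, 1.63% the full cyclic AMP element and 1.05% the NBRE. The NBRE letters were in none of the windows of the 9 members with an entry, ALOX5 being the member without. PTGS2 and PLA2G4A are neighbours on chromosome 1, with 148.5 kb between the gene models at 186671791-186680427 (minus strand) and 186828953-186988981 (plus strand) on GRCh38. The other members lie at chr9:122370530-122395703 (PTGS1), chr9:129738331-129753047 (PTGES), chr9:128120693-128128462 (PTGES2), chr12:56663341-56688408 (PTGES3), chr14:52314305-52328606 (PTGER2), chr5:40679498-40693735 (PTGER4), chr10:45374176-45446119 (ALOX5) and chr13:30713478-30764426 (ALOX5AP).

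In shNT cells at 5% CO2 without LPS the members spanned a wide range of levels per length. PTGES3, the cytosolic prostaglandin E synthase also known as the co-chaperone p23, was highest at 334 ± 31.6 TPM (mean ± SD, n = 3 here and below). ALOX5, encoding 5-lipoxygenase, followed at 99.1 ± 7.48 TPM, and PTGER4, encoding the EP4 receptor, at 92.6 ± 8.93 TPM, and the libraries of these genes overlapped. Next came ALOX5AP, encoding the 5-lipoxygenase activating protein, at 63.5 ± 14.0 TPM, then PTGES2, a Golgi-associated prostaglandin E synthase, at 47.8 ± 2.88 TPM. PTGS1, the constitutive cyclooxygenase, stood at 22.8 ± 0.867 TPM and PLA2G4A, the cytosolic phospholipase A2, at 6.92 ± 3.29 TPM. The inducible cyclooxygenase PTGS2 (COX-2) was at 1.84 ± 0.288 TPM, the inducible microsomal synthase PTGES at 0.769 ± 0.233 TPM, and PTGER2, encoding the EP2 receptor, was lowest at 0.230 ± 0.0680 TPM. Apart from ALOX5 with PTGER4, neighbours in this order did not overlap. Pseudogenes of PTGES3 and PTGER4 share sequence with them: PTGES3P1 held 8 to 114 counts and PTGER4P2 0 to 7 counts per library, and reads could be split between copies.

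**Figure D1:**
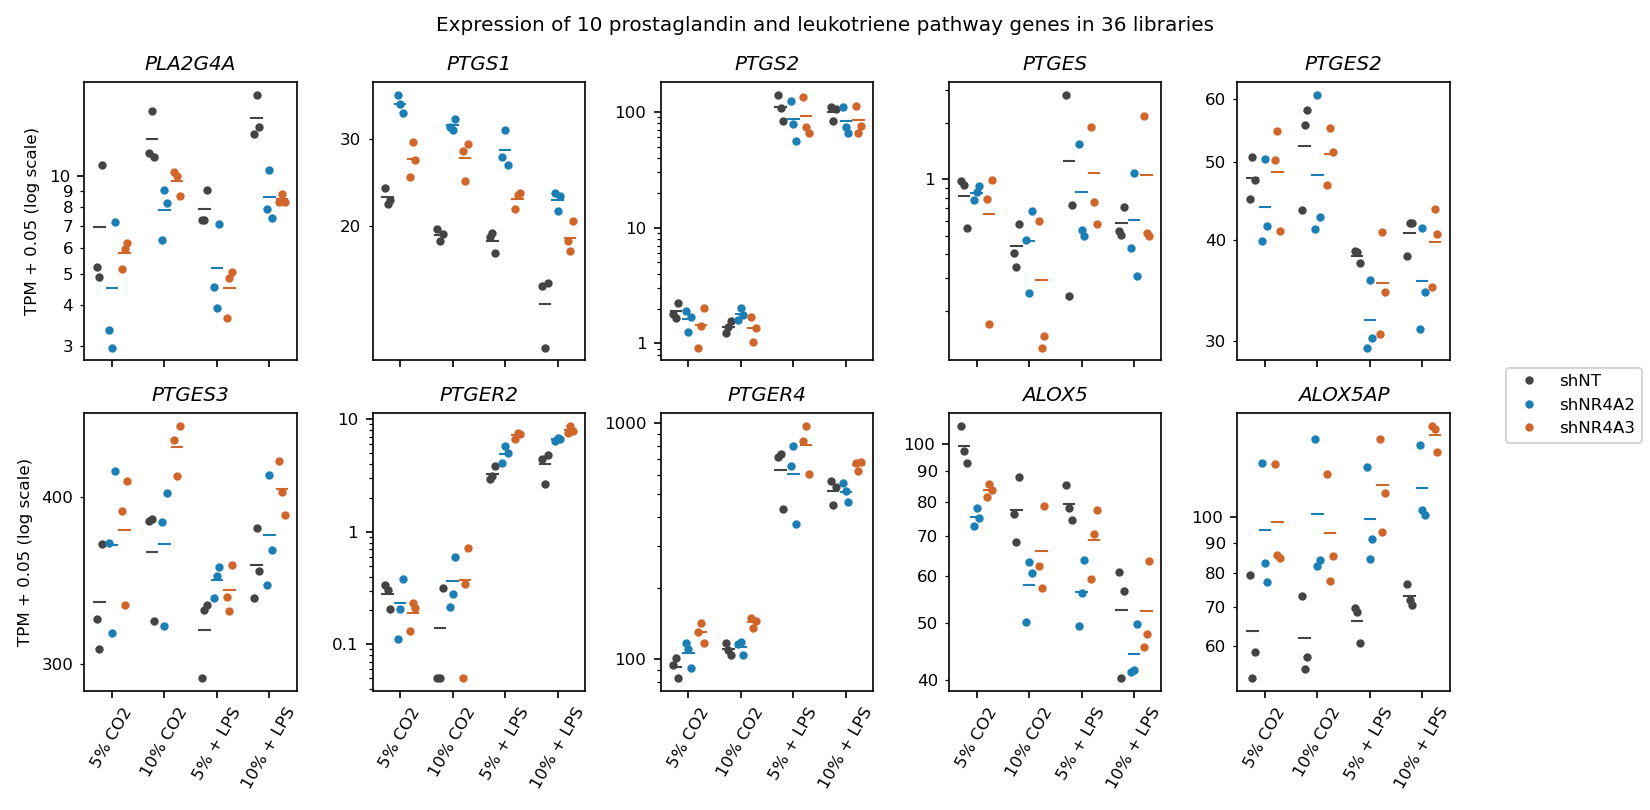
Level of each of the 10 members in every library, in TPM on a log axis after adding 0.05 TPM, with the 4 states of CO2 and LPS along the horizontal axis, the 3 lines in colour, 1 point per library and a dash at each group's mean. PTGS2, PTGER2 and PTGER4 step up in every LPS condition, PLA2G4A shifts with CO2, and PTGES3 stays between 293 and 452 TPM throughout.

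LPS raised 3 members in every line and at both CO2 levels: the inducible cyclooxygenase PTGS2 and the prostaglandin E2 receptors PTGER2 and PTGER4. Without LPS, PTGS2 was at 1.73, 1.62 and 2.17 TPM in shNT cells at 5% CO2, and with LPS at 139, 108 and 83.5 TPM. At 10% CO2 the shNT libraries were at 1.19, 1.34 and 1.52 TPM without LPS and at 110.1, 83.3 and 107 TPM with LPS. All 6 LPS libraries of shNT cells thus lay far above the 6 without it at both CO2 levels. In shNR4A2 cells PTGS2 was at 1.84, 1.19 and 1.65 TPM without LPS and at 125, 77.9 and 56.3 TPM with LPS at 5% CO2, and at 1.53, 1.97 and 1.72 TPM without LPS and at 109, 74.4 and 65.9 TPM with LPS at 10% CO2. In shNR4A3 cells it was at 0.870, 1.37 and 1.97 TPM without LPS and at 134, 74.4 and 65.1 TPM with LPS at 5% CO2, and at 1.65, 0.971 and 1.32 TPM without LPS and at 113, 66.0 and 75.1 TPM with LPS at 10% CO2. Groups with and without LPS never overlapped in either knockdown line. On the fitted scale (edgeR, log2 of normalised counts) the increase in shNT cells was 6.12 ± 0.21 (SE) at 5% CO2 (adjusted p = 4.55e-09) and 6.48 ± 0.14 at 10% CO2 (adjusted p = 7.47e-16). The 4 increases in the knockdown lines were 5.87 to 6.32 (adjusted p = 6.21e-08 to 5.76e-05). Over the 6 comparisons the fold change was 58.6 to 89.2, and by log2 fold change PTGS2 ranked 58 to 130 among the 17720 genes.

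EP2 and EP4, the receptors for prostaglandin E2 that couple to cyclic AMP, also rose. PTGER2 had few reads without LPS. Its counts in shNT cells were 4, 3 and 2 at 5% CO2 and 0, 0 and 4 at 10% CO2, and with LPS 41, 42 and 58 and 60, 37 and 75. The shNR4A2 libraries held 1, 2 and 5 and 2, 3 and 9 counts at 5% and 10% CO2 without LPS, against 49, 76 and 71 and 86, 94 and 101 with it. In shNR4A3 cells the counts were 1, 2 and 2 and 0, 5 and 9 without LPS, against 88, 83 and 109 and 102, 122 and 112 with it. The lowest LPS library held 37 counts and the highest library without LPS 9 counts. Summed over 3 libraries and scaled to library totals, the ratio of PTGER2 reads with to without LPS was 14.6 in shNT cells at 5% CO2 (95% exact binomial interval 7.46 to 32.5) and 43.7 at 10% CO2 (16.8 to 162). In the knockdown lines the ratios ran from 20.1 (11.8 to 37.3) in shNR4A2 cells at 10% CO2 to 52.0 (22.0 to 161) in shNR4A3 cells at 5% CO2. These intervals pool the reads of 3 libraries and cover counting error only. They leave out the spread between libraries, and reads are not independent molecules. The edgeR test called PTGER2 in all 6 comparisons, with adjusted p from 4.74e-08 to 1.18e-06.

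PTGER4 started from a much higher level. In shNT cells it was at 94.6, 100.4 and 82.9 TPM without LPS and at 718, 736 and 430.2 TPM with LPS at 5% CO2, and at 117, 109 and 104 TPM without LPS and at 568, 448 and 532 TPM with LPS at 10% CO2. For shNR4A2 cells the values were 117, 110.2 and 91.7 TPM without and 655, 796 and 373 TPM with LPS at 5% CO2, and 116, 118 and 104 TPM without and 555, 514 and 463 TPM with LPS at 10% CO2. For shNR4A3 cells they were 130.2, 143 and 117 TPM without and 833, 972 and 605 TPM with LPS at 5% CO2, and 149, 136 and 144 TPM without and 678, 625 and 679.9 TPM with LPS at 10% CO2. No LPS library fell within the range of its untreated group. For 34.5% to 51.3% of all genes the groups with and without LPS did not overlap. The third LPS library at 5% CO2 was the lowest of its group in each line. The fitted increase was 2.97 ± 0.22 at 5% CO2 and 2.50 ± 0.10 at 10% CO2 in shNT cells (log2, adjusted p = 8.62e-05 and 1.17e-12), and the fold change over the 6 comparisons was 5.52 to 7.86.

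**Figure D2:**
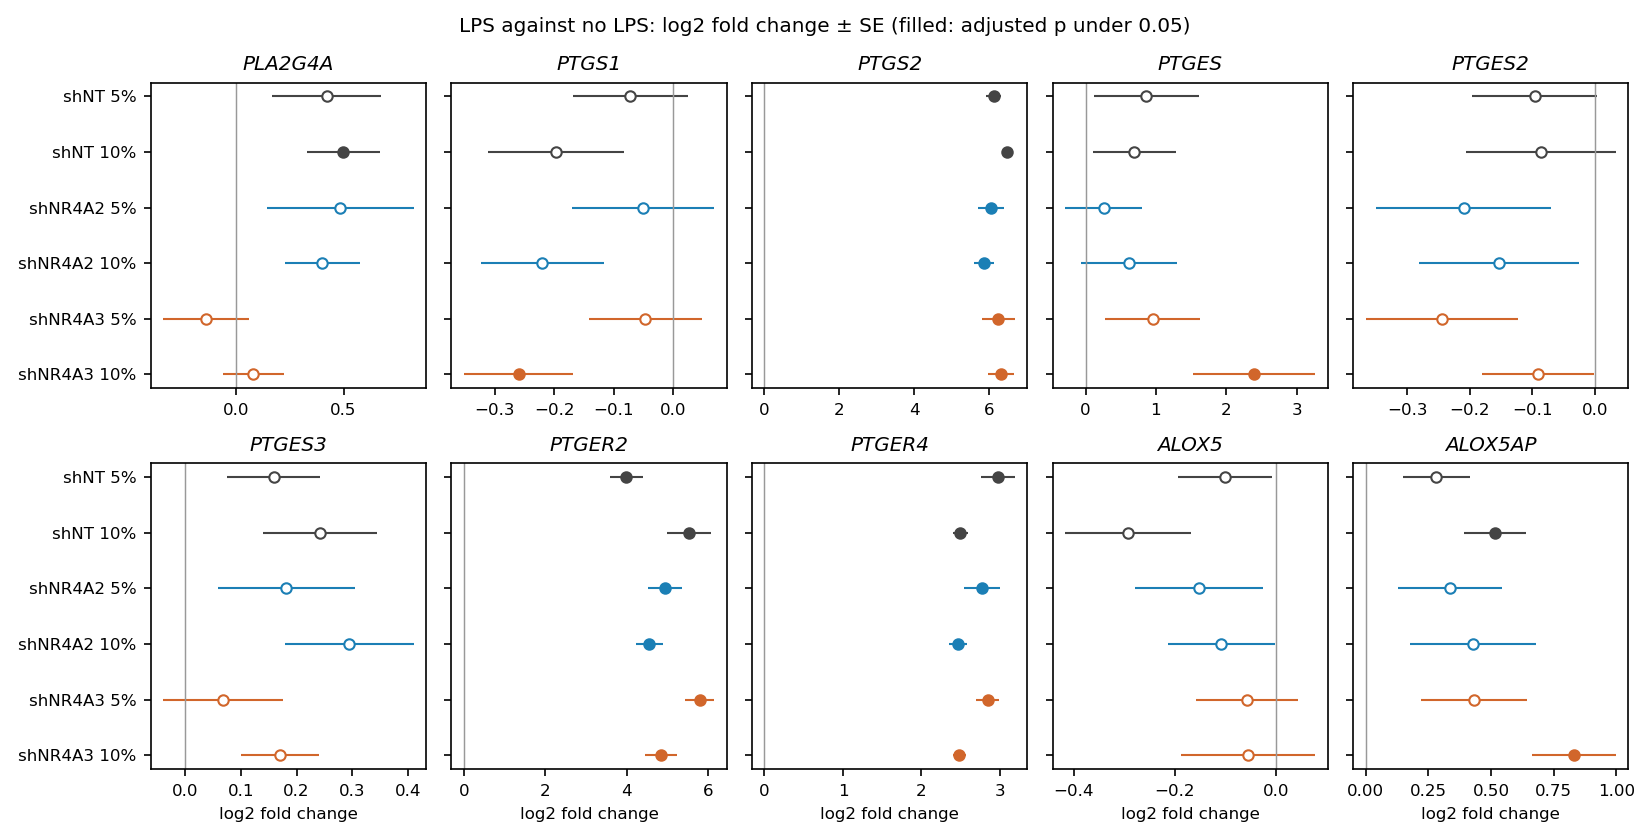
Log2 fold change with LPS against no LPS for each of the 10 members in the 6 pairs of line and CO2 level, from edgeR, with bars of 1 SE, filled points where the adjusted p is under 0.05 and a horizontal scale of its own in each panel. PTGS2 lies at 5.87 to 6.48, PTGER2 and PTGER4 above 2 in every pair, and the other members except PTGES within 1 of zero.

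In the order shNT at 5% and 10% CO2, shNR4A2 at 5% and 10% CO2 and shNR4A3 at 5% and 10% CO2, edgeR called 3, 5, 3, 3, 3 and 6 of the 10 members at an adjusted p under 0.05. The share of all 17720 genes called was 22.9%, 31.2%, 18.2%, 35%, 25.3% and 42.1%, and with the replicate number as a block 5, 7, 4, 6, 4 and 7 members were called. The block called 5313, 7161, 4904, 7488, 6300 and 9244 of the 17720 genes. Without the block the number of members called was thus not far from that of genes at large. By size of the log2 fold change PTGER2 ranked 116 to 223 and PTGER4 343 to 600 among all genes, below PTGS2. The median log2 fold change of the 10 members was 0.25 to 0.51, against -0.01 to 0.00 over all genes. The comparison is relative to the bulk of genes: with scaling by library totals alone in place of TMM, the median gene moved by -0.18 to -0.25 (log2) and the share of calls that were higher went from between 47% and 49.2% to between 22% and 24.3%. The increases of PTGS2, PTGER2 and PTGER4 stayed called under that scaling. Under it PTGS1 was called lower in 3 of the 6 pairs, PTGES2 in 5 and ALOX5 in 3. TPM likewise follows library totals, so small shifts with LPS read lower in TPM than on the fitted scale. In bulk RNA, fewer cells that express a gene and less RNA per cell cannot be told apart.

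The other members differed less with LPS. ALOX5AP rose in shNT cells at 10% CO2 (log2 fold change 0.52 ± 0.12, adjusted p = 0.004) and in shNR4A3 cells at 10% CO2 (0.83 ± 0.17, adjusted p = 0.00418), with no overlap between groups after TMM scaling, although the shNT call was lost under scaling by library totals (log2 fold change 0.29, adjusted p = 0.0636). At 5% CO2 its values were 0.28, 0.34 and 0.43 in shNT, shNR4A2 and shNR4A3 cells, not called. Among replicate-paired fits, however, ALOX5AP was called in shNR4A2 and shNR4A3 cells at 5% CO2 (adjusted p = 0.0346 and 0.00085). It was also called without replicate 1 of shNT 5% CO2 (log2 fold change 0.48, adjusted p = 0.0113) in shNT cells at 5% CO2, without replicate 1 of shNR4A2 10% CO2 (log2 fold change 0.74, adjusted p = 0.000992) in shNR4A2 cells, and without replicate 1 of shNR4A3 5% CO2 or replicate 2 of shNR4A3 5% CO2 + LPS (log2 fold change 0.66 and 0.60, adjusted p = 0.0187 and 0.0416) in shNR4A3 cells.

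PLA2G4A was called with LPS in shNT cells at 10% CO2 (log2 fold change 0.50 ± 0.17, adjusted p = 0.0331), where the libraries overlapped, and that call was lost without replicate 1 or 3 of shNT 10% CO2 or replicate 2 of shNT 10% CO2 + LPS (adjusted p = 0.0833, 0.126 and 0.192) and under scaling by library totals (log2 fold change 0.28, adjusted p = 0.21). At 5% CO2 in the same line it was called only without replicate 3 of shNT 5% CO2 (log2 fold change 0.83, adjusted p = 0.00786). PTGES, the inducible partner of COX-2 in prostaglandin E2 synthesis, stayed low throughout. Its counts were 1 to 30 in all 36 libraries. It was called in shNR4A3 cells at 10% CO2 (log2 fold change 2.40 ± 0.87, adjusted p = 0.0413), where counts were 5, 1 and 1 without and 22, 5 and 5 with LPS. Those groups overlapped, the 22-count library gave most of the difference, and the call was lost without replicate 2 or 3 of shNR4A3 10% CO2 or replicate 1 of shNR4A3 10% CO2 + LPS (log2 fold change 1.92, 2.03 and 1.27, adjusted p = 0.147, 0.134 and 0.269). Replicate 1 also held the most counts with LPS at 5% CO2: 30, 2 and 8 in shNT, 14, 5 and 5 in shNR4A2 and 19, 6 and 6 in shNR4A3 cells. With LPS at 10% CO2 it did not in shNT (5, 5 and 8) or shNR4A2 cells (4, 11 and 3). PTGS1 was lower with LPS in shNR4A3 cells at 10% CO2 (-0.26 ± 0.09, adjusted p = 0.0358), a call lost without replicate 1 or 3 of shNR4A3 10% CO2 or replicate 1 or 2 of shNR4A3 10% CO2 + LPS (adjusted p = 0.139, 0.0974, 0.0512 and 0.126). PTGES2, PTGES3 and ALOX5 were not called in any LPS comparison, but PTGES3 was called with the replicate number as a block in shNR4A3 cells at 10% CO2 (adjusted p = 0.000593) and without replicate 1 of shNT 10% CO2 (adjusted p = 0.0467), without replicate 1 of shNR4A2 10% CO2 (adjusted p = 0.0362) or without replicate 1 of shNR4A3 10% CO2 (adjusted p = 0.0455), and ALOX5 without replicate 1 of shNT 10% CO2 + LPS (log2 fold change -0.41, adjusted p = 0.027).

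A wider list of 57 genes of prostaglandin and leukotriene metabolism, transport and reception was examined beside the members, of which 44 had enough counts to test. In the same order of conditions, 3, 5, 3, 8, 4 and 9 of the 44 were called higher with LPS and 9, 8, 7, 9, 8 and 11 lower, totals of 12, 13, 10, 17, 12 and 20 to be read against the shares of all genes given above. PLA2G7, which encodes the secreted enzyme that inactivates platelet-activating factor, rose in all 6 comparisons (log2 fold change 2.36 to 4.28). PLA2G4C, a calcium-independent cytosolic phospholipase A2, also rose in all 6 (1.10 to 2.36). Receptor genes moved as well: PTGIR, for prostacyclin, was called higher in 4 comparisons (0.86 to 1.85), and PTGFR, for prostaglandin F2α, in the 3 at 10% CO2 (1.87 to 3.14). The PTGIR call in shNT cells at 5% CO2 was lost without any 1 replicate of shNT 5% CO2 or replicate 3 of shNT 5% CO2 + LPS (adjusted p = 0.0534, 0.122, 0.104 and 0.259), and that of PTGFR in shNR4A3 cells without replicate 3 of shNR4A3 10% CO2 or replicate 3 of shNR4A3 10% CO2 + LPS (adjusted p = 0.0576 and 0.0511). DAGLA, encoding a diacylglycerol lipase, fell in all 6 (-0.77 to -1.75), and FPR2, which encodes a receptor for formyl peptides and lipoxin A4, in 5 (-1.16 to -2.12). Over the 36 libraries PTGFR held 0 to 28 counts, PTGIR 9 to 81, FPR2 5 to 128 and PLA2G7 1 to 132. Fold changes from their lowest libraries thus rest on few reads. Calls of FPR2 at 10% CO2 were lost without replicate 2 or 3 of shNR4A2 10% CO2 + LPS (adjusted p = 0.061 and 0.063) in shNR4A2 cells and without replicate 1 or 3 of shNR4A3 10% CO2 or replicate 2 or 3 of shNR4A3 10% CO2 + LPS (adjusted p = 0.0907, 0.0607, 0.0974 and 0.0928) in shNR4A3 cells.

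At 10% CO2 the gene for the enzyme that releases arachidonic acid was expressed at a higher level. PLA2G4A lay higher at 10% than at 5% CO2 in each line and state on the fitted scale, by a log2 fold change of 0.77 to 1.07, of which 3 of the 6 comparisons passed the test. In shNT cells PLA2G4A was at 5.19, 4.85 and 10.7 TPM at 5% CO2 and at 11.7, 15.7 and 11.4 TPM at 10% CO2 without LPS, and at 7.27, 7.27 and 9.01 TPM and 13.4, 17.7 and 14.1 TPM with LPS. The 10% CO2 libraries lay above the 5% CO2 libraries in both states, with the third basal library at 5% CO2 close to them. In shNR4A2 cells the basal values were 3.32, 2.92 and 7.15 TPM at 5% CO2 and 6.33, 8.97 and 8.18 TPM at 10% CO2, and with LPS 4.50, 3.87 and 7.08 TPM and 7.87, 10.4 and 7.38 TPM. The basal groups of that line overlapped and those with LPS did not. In shNR4A3 cells PLA2G4A was at 5.13, 5.90 and 6.16 TPM at 5% CO2 and 10.2, 9.97 and 8.64 TPM at 10% CO2 without LPS, and at 3.60, 4.80 and 5.01 TPM and 8.29, 8.72 and 8.28 TPM with LPS, again without overlap. For 13.9% to 29.2% of all genes the CO2 groups did not overlap in these 6 comparisons.

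The call was made in LPS-stimulated shNT cells (log2 fold change 1.07 ± 0.17, a fold of 2.10, adjusted p = 0.00467), and this one held without any single library. In shNR4A3 cells it was made in the basal state (0.78 ± 0.17, adjusted p = 0.0386) and with LPS (0.97 ± 0.17, adjusted p = 0.0237). The basal call was lost without any 1 replicate of shNR4A3 5% CO2 or replicate 1 or 2 of shNR4A3 10% CO2 (adjusted p = 0.0526 to 0.253), and the call with LPS without replicate 1 of shNR4A3 5% CO2 + LPS or replicate 1 or 2 of shNR4A3 10% CO2 + LPS (adjusted p = 0.0568, 0.077 and 0.137). Basal shNT cells gave 1.00 ± 0.24 (adjusted p = 0.082 by edgeR and 0.00944 by DESeq2), which was called without replicate 3 of shNT 5% CO2 (log2 fold change 1.42, adjusted p = 0.036). In shNR4A2 cells the values were 0.86 ± 0.27 in the basal state (adjusted p = 0.418, or 0.0478 with the replicate number as a block) and 0.77 ± 0.25 with LPS (adjusted p = 0.167), the latter called without replicate 3 of shNR4A2 5% CO2 + LPS (log2 fold change 1.09, adjusted p = 0.0197). When the CO2 effects of the 3 lines were averaged in 1 fit of 18 libraries, PLA2G4A rose by 0.88 ± 0.16 without LPS (adjusted p = 0.000844) and by 0.94 ± 0.12 with LPS (adjusted p = 2.72e-05), and it ranked 110 and 174 among the 17720 genes.

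**Figure D3:**
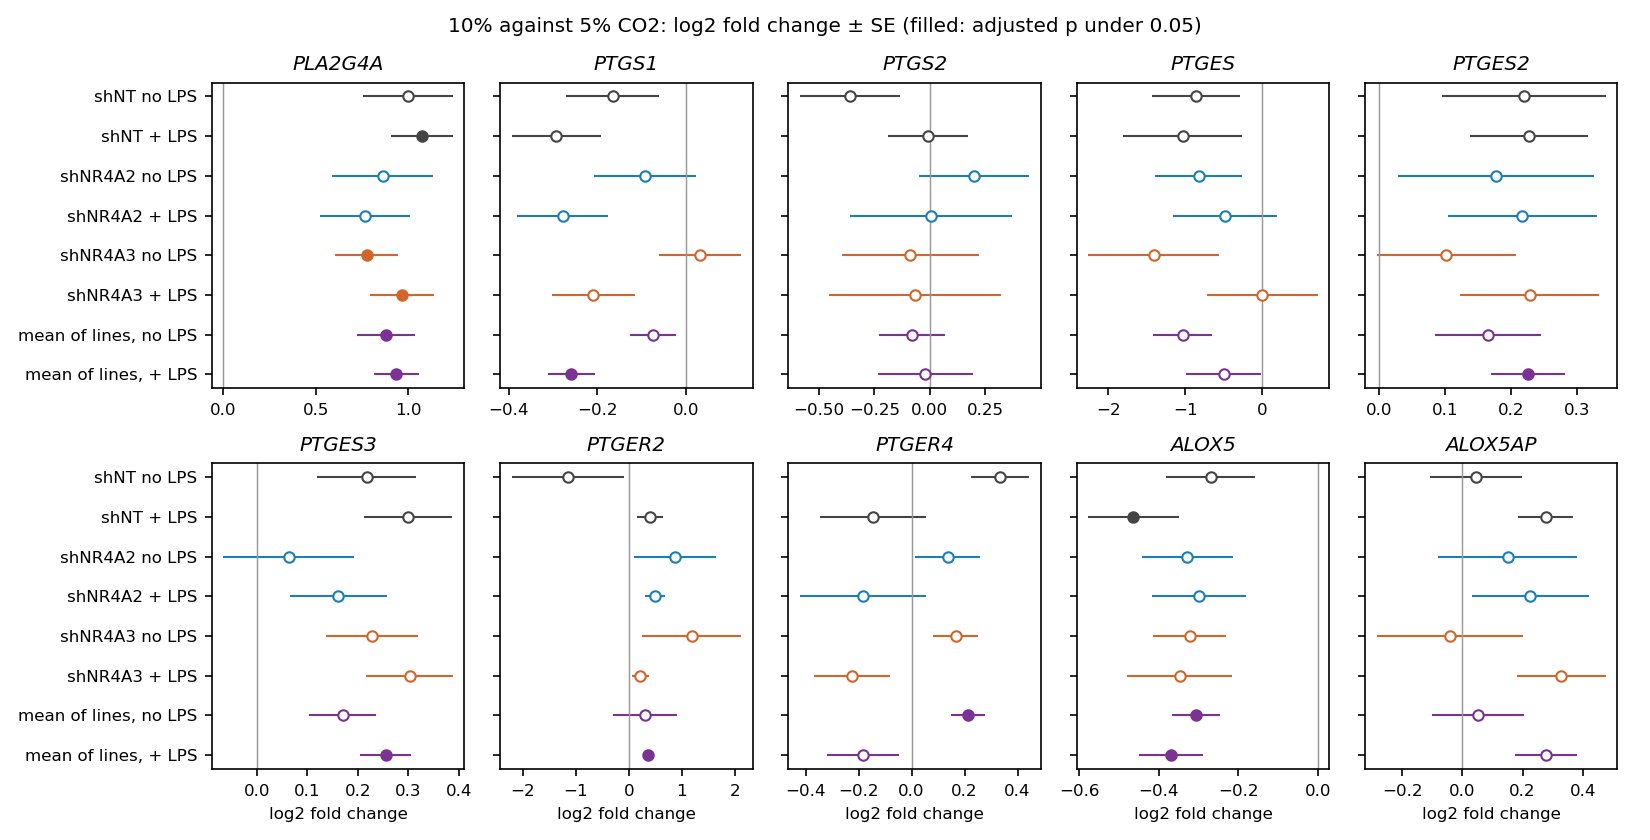
Log2 fold change at 10% against 5% CO2 for each of the 10 members in the 3 lines and averaged over them, without and with LPS, from edgeR with bars of 1 SE, filled points where the adjusted p is under 0.05 and a horizontal scale of its own in each panel. PLA2G4A lies at 0.77 to 1.07 in every pair, ALOX5 at -0.27 to -0.46, and PTGS2 on both sides of zero.

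ALOX5, which opens the leukotriene branch, was lower at 10% CO2 on the fitted scale in all 6 comparisons. Its shNT values were 107, 97.1 and 92.8 TPM at 5% CO2 and 76.2, 68.4 and 87.9 TPM at 10% CO2 without LPS, and 85.3, 77.9 and 74.4 TPM and 60.8, 40.3 and 56.6 TPM with LPS. Its shNR4A2 values were 72.8, 77.9 and 75.0 TPM and 50.1, 63.1 and 60.5 TPM without LPS, and 49.2, 56.1 and 63.6 TPM and 41.2, 41.6 and 49.7 TPM with LPS. Its shNR4A3 values were 81.4, 85.7 and 83.7 TPM and 62.2, 57.2 and 78.5 TPM without LPS, and 59.1, 70.5 and 77.4 TPM and 45.4, 47.9 and 63.6 TPM with LPS. The CO2 groups did not overlap in the basal state of any line or in shNT cells with LPS. The share of all genes without overlap was 19.9%, 13.9% and 21.7% in basal shNT, shNR4A2 and shNR4A3 cells. It was 29.2% in shNT cells with LPS. By edgeR ALOX5 was called only in shNT cells with LPS (-0.46 ± 0.11, adjusted p = 0.0305), and that call was lost without replicate 1 or 2 of shNT 5% CO2 + LPS or replicate 2 or 3 of shNT 10% CO2 + LPS (adjusted p = 0.112, 0.0742, 0.0906 and 0.0842). With the replicate number as a block it was also called in basal shNR4A2 cells (log2 fold change -0.33, adjusted p = 0.0375). Averaged over lines it fell without LPS (-0.31 ± 0.06, adjusted p = 0.00171) and with LPS (-0.37 ± 0.08, adjusted p = 0.00241).

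Within lines, edgeR called 0 of the 10 members in basal shNT cells and 2 with LPS, 0 and 0 in shNR4A2 cells, and 1 and 1 in shNR4A3 cells. The share of all genes called was 0.615% and 8.19% in shNT cells, 0.0113% and 0.198% in shNR4A2 cells and 1.13% and 2.13% in shNR4A3 cells. Where no member was called, 4 members in basal shNT cells, 2 in basal shNR4A2 cells and 4 in LPS-stimulated shNR4A2 cells had an unadjusted p under 0.05, and DESeq2 called 1, 0 and 0. Of all 17720 genes, 2645, 1430 and 2897 had an unadjusted p under 0.05 there, and DESeq2 called 358, 43 and 600 genes. Where edgeR called members, DESeq2 called 3 in LPS-stimulated shNT cells and 2 and 2 in basal and LPS-stimulated shNR4A3 cells. Its calls among all genes were 1801, 550 and 885 there. With the replicate number as a block the counts were 0 and 3 in shNT, 2 and 0 in shNR4A2 and 3 and 2 in shNR4A3 cells. Of all 17720 genes the block called 144 and 1568 in shNT, 361 and 619 in shNR4A2 and 1073 and 518 in shNR4A3 cells. In shNT cells with LPS, scaling by library totals took the share of calls that were higher from 54.5% to 39.2%. COX-2 was not called in any CO2 comparison. The log2 fold change of PTGS2 was -0.36 to 0.20 over the 6, and in LPS-stimulated shNT cells its 95% interval was -0.36 to 0.34. Single libraries decided 2 further values in shNT cells with LPS: PTGES3 was called without replicate 3 of shNT 5% CO2 + LPS (log2 fold change 0.36, adjusted p = 0.0307) and PTGER4 without replicate 3 of shNT 5% CO2 + LPS (log2 fold change -0.34, adjusted p = 0.0227), although PTGER4 had an adjusted p of 0.719 with all 6.

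The averages over lines called 3 of the 10 members without LPS, against 15.9% of all genes, and 6 with LPS, against 28.9%. In the basal state PTGER4 rose beside the changes of PLA2G4A and ALOX5 (0.21 ± 0.06, adjusted p = 0.0264), a call lost without replicate 3 of shNT 5% CO2, replicate 3 of shNR4A2 5% CO2, replicate 1 of shNR4A2 10% CO2, replicate 3 of shNR4A3 5% CO2 or replicate 1 of shNR4A3 10% CO2 (adjusted p = 0.0518 to 0.0612). With LPS the prostaglandin E synthases PTGES3 (0.26 ± 0.05, adjusted p = 0.000906) and PTGES2 (0.23 ± 0.06, adjusted p = 0.00513) and the receptor PTGER2 (0.36 ± 0.10, adjusted p = 0.0124) rose. PTGS1 fell (-0.26 ± 0.05, adjusted p = 0.00141). For PTGS2 the averages were -0.08 ± 0.15 without and -0.02 ± 0.21 with LPS. Some members passed only when 1 library was left out: PTGES without replicate 2 of shNR4A3 5% CO2 or replicate 1 of shNR4A3 10% CO2 (log2 fold change -1.19 and -1.46, adjusted p = 0.03 and 0.02) and PTGES3 without replicate 3 of shNT 10% CO2 or replicate 2 of shNR4A2 10% CO2 (log2 fold change 0.20 and 0.21, adjusted p = 0.0437 and 0.028) in the basal state, and ALOX5AP without replicate 3 of shNT 10% CO2 + LPS, replicate 1 of shNR4A2 5% CO2 + LPS, replicate 2 or 3 of shNR4A2 10% CO2 + LPS or replicate 1 of shNR4A3 5% CO2 + LPS (adjusted p = 0.00823 to 0.0467) with LPS.

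Of the 44 other pathway genes, 1 was called higher and 0 lower with CO2 in basal shNT cells, and 2 and 3 with LPS. In shNR4A2 cells 0 were called in either state, and in shNR4A3 cells 0 in the basal state and 1 (lower) with LPS. At an unadjusted p under 0.05 there were 4 and 6 in shNR4A2 cells and 7 in basal shNR4A3 cells, and DESeq2 called 0, 0 and 1. Of all 17720 genes, 1430, 2897 and 2956 had an unadjusted p under 0.05 there, and DESeq2 called 43, 600 and 550 genes. The edgeR calls are to be read against the shares of all genes given for the members, 0.615% and 8.19% in shNT cells. CBR1, a carbonyl reductase that acts on prostaglandins, rose in basal shNT cells (0.74, adjusted p = 0.0388), a call lost without replicate 1 or 3 of shNT 5% CO2 or replicate 2 of shNT 10% CO2 (adjusted p = 0.249, 0.089 and 0.326). In LPS-stimulated shNT cells PLA2G15, the lysosomal phospholipase A2, fell (-0.71, adjusted p = 0.00634). PLA2G4C rose (0.69, adjusted p = 0.0404) and LPCAT3, which returns polyunsaturated fatty acids to membrane lipids, fell (-0.43, adjusted p = 0.0426). The PLA2G4C call was lost without replicate 2 or 3 of shNT 5% CO2 + LPS or any 1 replicate of shNT 10% CO2 + LPS (adjusted p = 0.0561 to 0.174), and the LPCAT3 call without any 1 replicate of shNT 5% CO2 + LPS or any 1 replicate of shNT 10% CO2 + LPS (adjusted p = 0.0642 to 0.161). LPCAT3 shares 3100 exon bases with EMG1 on the opposite strand (210 to 381 counts per library), and with the strand setting unknown reads of the pair cannot be told apart, which touches every LPCAT3 value here. Averaged over lines, 4 of the 44 were called higher and 4 lower without LPS, where 15.9% of all genes were called, and 6 and 6 with LPS, against 28.9%, so both counts were near those of genes at large. With LPS the averages were -0.59 ± 0.10 for PLA2G15, -0.40 ± 0.07 for LPCAT3, -0.39 ± 0.09 for the leukotriene receptor gene CYSLTR1 and -0.36 ± 0.06 for ANXA1, whose product annexin A1 inhibits phospholipase A2, with adjusted p from 0.000147 to 0.00232. ANXA1 also fell without LPS (-0.28 ± 0.06, adjusted p = 0.00275).

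The knockdown lines differed from shNT cells in some members of both branches. With all libraries and no block, the synthases PTGES2 and PTGES3 were not called in any of the 8 comparisons. In both lines PTGS1 and ALOX5AP lay higher and PLA2G4A lower on the fitted scale in all 4 states, and ALOX5 was called lower in shNR4A2 cells. Both lines were compared with the same shNT libraries, so the pair of comparisons in a state is not independent. PTGS1 was at 23.8, 22.1 and 22.5 TPM in basal shNT cells at 5% CO2, at 36.8, 35.3 and 33.9 TPM in shNR4A2 cells and at 25.1, 29.6 and 27.2 TPM in shNR4A3 cells. With LPS at 5% CO2 the same lines were at 18.9, 19.3 and 17.6, at 27.5, 31.3 and 26.5 and at 21.6, 23.0 and 23.3 TPM. Both knockdown lines lay above shNT without overlap in these states. At 10% CO2 PTGS1 was at 19.7, 18.6 and 19.2 TPM in shNT, 31.7, 31.3 and 32.8 TPM in shNR4A2 and 28.4, 24.6 and 29.2 TPM in shNR4A3 cells without LPS. With LPS at 10% CO2 the values were 15.1, 11.3 and 15.3 TPM, 23.3, 21.4 and 23.0 TPM and 18.6, 17.7 and 20.4 TPM. Again no knockdown library fell within the shNT range. For 23.7% to 36.4% of all genes a knockdown line and shNT did not overlap in such a comparison. In shNR4A2 cells PTGS1 was called in all 4 states, by a log2 fold change of 0.63 to 0.70 (adjusted p = 0.000464 to 0.00406), and no single library decided that. In shNR4A3 cells it was 0.31 ± 0.10 at 5% CO2 without LPS (adjusted p = 0.0836) and was called in the other 3 states (0.34 to 0.49). Those calls were lost without any 1 replicate of shNT 5% CO2 + LPS or replicate 1 or 3 of shNR4A3 5% CO2 + LPS (adjusted p = 0.0945 to 0.178) at 5% CO2 with LPS, without replicate 1 of shNR4A3 10% CO2 (adjusted p = 0.0558) at 10% CO2, and without replicate 2 of shNT 10% CO2 + LPS or replicate 3 of shNR4A3 10% CO2 + LPS (adjusted p = 0.0566 and 0.0598) at 10% CO2 with LPS.

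ALOX5AP, whose product presents arachidonic acid to 5-lipoxygenase, was at 79.3, 52.7 and 58.4 TPM in basal shNT cells at 5% CO2, against 124, 83.3 and 77.2 TPM in shNR4A2 and 123, 86.0 and 84.7 TPM in shNR4A3 cells. With LPS at 5% CO2 the lines were at 69.6, 68.4 and 60.7 TPM, 122, 84.5 and 91.4 TPM and 136, 93.9 and 109.6 TPM. The first library of each line was the highest of its group in the basal state, and shNR4A2 overlapped with shNT there. At 10% CO2 the basal values were 73.1, 54.7 and 57.3 TPM in shNT, 136, 82.3 and 84.3 TPM in shNR4A2 and 118, 77.3 and 85.7 TPM in shNR4A3 cells. With LPS at 10% CO2 they were 76.6, 72.0 and 70.3 TPM, 133, 103 and 100.5 TPM and 143, 142 and 129 TPM, and both knockdown lines stood above shNT. With LPS the gene was called in shNR4A2 cells (0.65 ± 0.16 at 5% and 0.59 ± 0.13 at 10% CO2, adjusted p = 0.0369 and 0.0105) and in shNR4A3 cells (0.84 ± 0.15 and 0.90 ± 0.09, adjusted p = 0.00884 and 2.06e-05). Without LPS the log2 fold changes were 0.58 to 0.68 and were not called (adjusted p = 0.0561 to 0.105), or 0.000107 in shNR4A2 cells at 5% CO2 with the replicate number as a block. Calls with LPS were lost without any 1 replicate of shNT 5% CO2 + LPS or replicate 1 or 3 of shNR4A2 5% CO2 + LPS (adjusted p = 0.0515 to 0.13) and without replicate 3 of shNT 10% CO2 + LPS (adjusted p = 0.0528) in shNR4A2 cells, and without replicate 3 of shNT 5% CO2 + LPS (adjusted p = 0.0513) in shNR4A3 cells. In the basal state the gene was called without replicate 1 of shNT 5% CO2 (adjusted p = 0.0486) or without replicate 2 or 3 of shNR4A2 10% CO2 (adjusted p = 0.0119 and 0.0435) in shNR4A2 cells, and without replicate 1 of shNT 5% CO2 or replicate 2 of shNR4A3 5% CO2 (adjusted p = 0.00738 and 0.0381) or without replicate 2 or 3 of shNR4A3 10% CO2 (adjusted p = 0.0158 and 0.03) in shNR4A3 cells.

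PLA2G4A was lower in shNR4A2 cells at 10% CO2 without LPS (-0.77 ± 0.18, adjusted p = 0.00887) and with it (-0.86 ± 0.17, adjusted p = 0.0032). In shNR4A3 cells it was lower with LPS at 5% CO2 (-0.76 ± 0.19, adjusted p = 0.0412) and at 10% CO2 (-0.87 ± 0.15, adjusted p = 0.00206). The libraries of these 4 comparisons did not overlap, as the TPM values given for the CO2 comparison show. The basal shNR4A2 call was lost without replicate 2 of shNT 10% CO2 (adjusted p = 0.113), and the shNR4A3 call at 5% CO2 without any 1 replicate of shNT 5% CO2 + LPS or replicate 1 or 3 of shNR4A3 5% CO2 + LPS (adjusted p = 0.0684 to 0.152). At 5% CO2 the shNR4A2 values were -0.62 ± 0.34 without and -0.55 ± 0.25 with LPS, not called (adjusted p = 0.347 and 0.238), but called with the replicate number as a block (adjusted p = 0.0112 and 0.0069). ALOX5 was lower in shNR4A2 cells in 3 states: at 5% CO2 without LPS (-0.40 ± 0.10, adjusted p = 0.0451) and with it (-0.44 ± 0.11, adjusted p = 0.0422), and at 10% CO2 without LPS (-0.46 ± 0.12, adjusted p = 0.0176). These calls were lost without replicate 1 or 2 of shNT 5% CO2 or replicate 1 or 3 of shNR4A2 5% CO2 (adjusted p = 0.104 to 0.186), without any 1 replicate of shNT 5% CO2 + LPS or replicate 1 or 2 of shNR4A2 5% CO2 + LPS (adjusted p = 0.0634 to 0.144) and without replicate 3 of shNT 10% CO2 or replicate 1 or 3 of shNR4A2 10% CO2 (adjusted p = 0.0633, 0.104 and 0.0571), while the value at 10% CO2 with LPS was called without replicate 2 of shNT 10% CO2 + LPS (log2 fold change -0.40, adjusted p = 0.0233). In shNR4A3 cells ALOX5 was not called (-0.02 to -0.26).

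**Figure D4:**
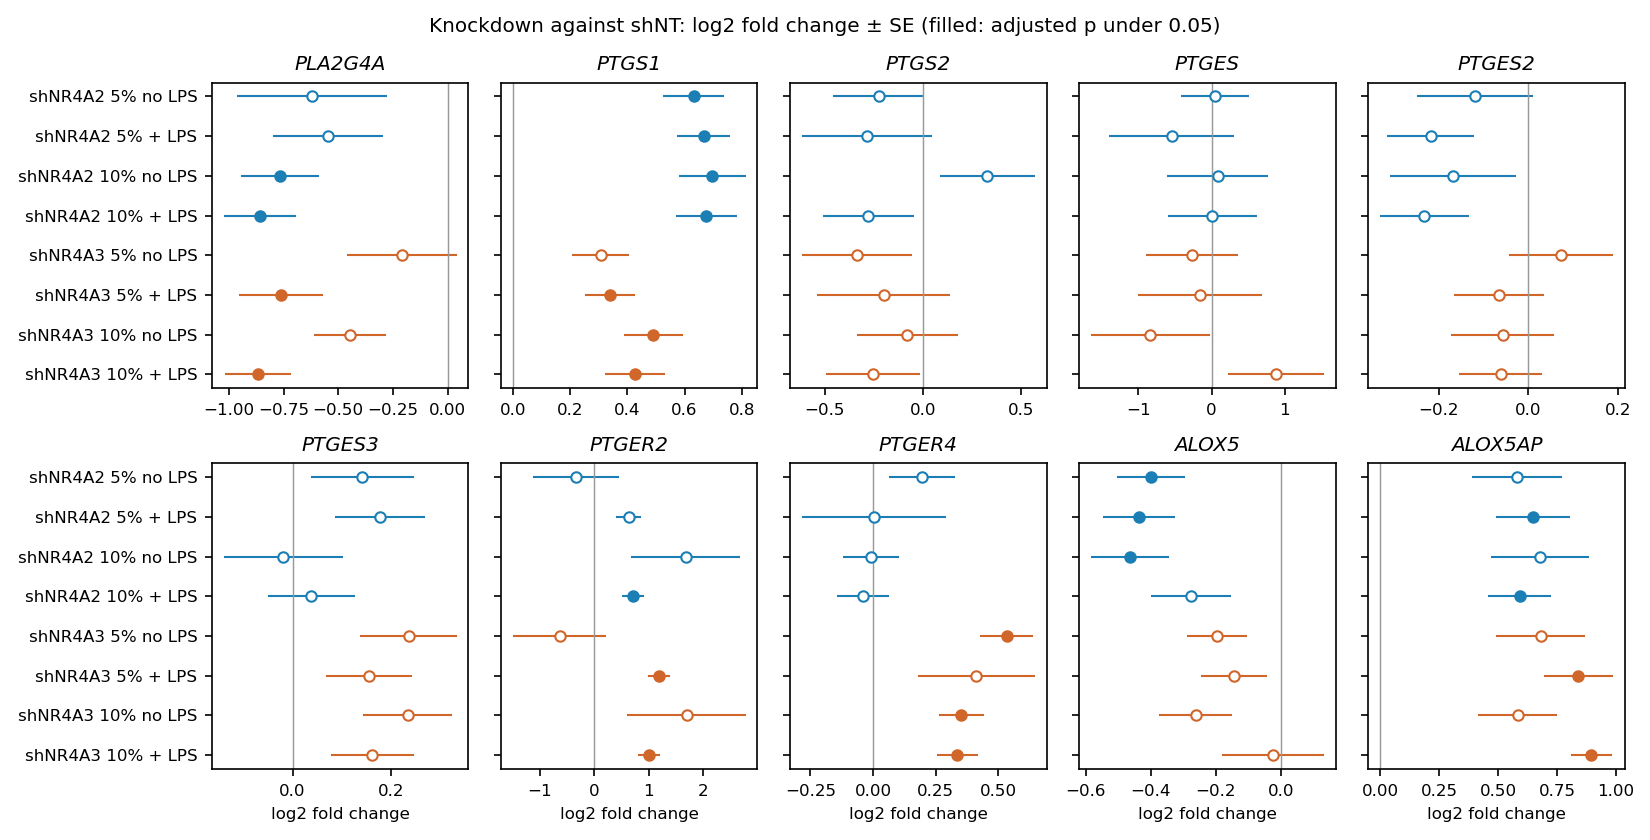
Log2 fold change of shNR4A2 and shNR4A3 against shNT cells for each of the 10 members in the 4 states, from edgeR with bars of 1 SE, filled points where the adjusted p is under 0.05 and a horizontal scale of its own in each panel. PTGS1 and ALOX5AP lie above zero and PLA2G4A below it in all 8 comparisons, which share the shNT libraries of each state, and PTGS2 lies at -0.34 to 0.33.

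Of the prostaglandin E2 receptors, PTGER4 was higher in shNR4A3 cells at 5% CO2 without LPS (0.53 ± 0.11, adjusted p = 0.006) and at 10% CO2 without (0.35 ± 0.09, adjusted p = 0.0244) and with LPS (0.34 ± 0.08, adjusted p = 0.014). At 5% CO2 with LPS the difference was 0.41 ± 0.23 (adjusted p = 0.379, or 0.000225 with the replicate number as a block). The calls at 10% CO2 were lost without replicate 2 or 3 of shNT 10% CO2 or any 1 replicate of shNR4A3 10% CO2 (adjusted p = 0.056 to 0.165) and without replicate 2 or 3 of shNT 10% CO2 + LPS (adjusted p = 0.064 and 0.0787). In shNR4A2 cells PTGER4 was not called (-0.04 to 0.20), except at 5% CO2 without LPS with the block (adjusted p = 0.04). PTGER2 with LPS was higher in shNR4A3 cells at 5% (1.19 ± 0.20, adjusted p = 0.005) and 10% CO2 (1.01 ± 0.20, adjusted p = 0.00425), and in shNR4A2 cells at 10% CO2 (0.72 ± 0.20, adjusted p = 0.0257), the last a call lost without replicate 2 of shNT 10% CO2 + LPS or replicate 2 or 3 of shNR4A2 10% CO2 + LPS (adjusted p = 0.0811, 0.0665 and 0.0711). At 5% CO2 the shNR4A2 value was 0.63 ± 0.22 (adjusted p = 0.129, or 0.0219 with the block). In TPM, which allows for library size, all 3 libraries of each knockdown line lay above the 3 shNT libraries in both LPS states (lowest 4.00 against highest 3.77 TPM at 5% CO2, and 6.29 against 4.74 TPM at 10% CO2), whereas the counts overlapped for shNR4A2 at 5% CO2.

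COX-2 itself was not called in either knockdown line. The PTGS2 difference with LPS was -0.29 ± 0.33 and -0.28 ± 0.23 in shNR4A2 cells at 5% and 10% CO2, and -0.20 ± 0.34 and -0.25 ± 0.24 in shNR4A3 cells (adjusted p = 0.476 to 0.794). The first LPS library was the highest of its group in every line at both CO2 levels, shNT included (139 and 110.1 TPM at 5% and 10% CO2). At 10% CO2 leaving it out of the knockdown group alone, with the first shNT library kept, made the difference pass. PTGS2 was then lower without replicate 1 of shNR4A2 10% CO2 + LPS (log2 fold change -0.58, adjusted p = 0.000641) and without replicate 1 of shNR4A3 10% CO2 + LPS (log2 fold change -0.54, adjusted p = 0.00545). With the replicate number as a block PTGS2 was also called lower in shNR4A2 cells at 5% CO2 with LPS (adjusted p = 0.000465). PTGES, PTGES2 and PTGES3 were not called in either line, except that PTGES3 was called higher in shNR4A3 cells without replicate 2 of shNR4A3 5% CO2 (adjusted p = 0.0345) or without replicate 1 of shNT 10% CO2 (adjusted p = 0.0461).

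Counted over the members, edgeR called 2 and 3 of 10 in shNR4A2 cells at 5% CO2 without and with LPS, where 5.69% and 6.21% of all genes were called, and 3 and 4 at 10% CO2, against 7.95% and 18.9%. In shNR4A3 cells it called 1 and 4 at 5% CO2, against 6.19% and 5.41%, and 2 and 5 at 10% CO2, against 6.85% and 14.5%. With the replicate number as a block the counts were 5, 6, 4 and 6 in shNR4A2 and 4, 5, 6 and 5 in shNR4A3 cells, in the same order. Of the 17720 genes the block called 3803, 4369, 2107 and 6161 in shNR4A2 and 2299, 3312, 2394 and 4409 in shNR4A3 cells. The members' median log2 fold change was -0.11 to 0.25 over the 8 comparisons, and that of all genes -0.01 to 0.00. The monocytic markers moved with these comparisons: 2 to 5 of the 10 were called higher in each, and 1 was called lower in shNR4A3 cells at 10% CO2 with LPS. Their summed level without LPS was 1714 to 2269 TPM in shNT, 2410 to 2729 TPM in shNR4A2 and 2466 to 3378 TPM in shNR4A3 cells, and with LPS 972 to 1510 TPM, 1671 to 2072 TPM and 1900 to 2443 TPM. None of these markers was at 0. Their part in the differences of the members was not tested.

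Among the 44 other pathway genes, 6, 4, 7 and 9 were called higher and 3, 2, 3 and 2 lower in shNR4A2 cells (5% CO2 without and with LPS, then 10% CO2), and 3, 2, 1 and 7 higher and 2, 2, 5 and 3 lower in shNR4A3 cells. The totals of 9, 6, 10 and 11 and of 5, 4, 6 and 10 are to be read against the shares of all genes just given. PTGDS, encoding a prostaglandin D synthase, was lower in 7 of the 8 comparisons (log2 fold change -1.20 to -1.58), 4 of them in shNR4A3 cells. Each of those 4 calls was lost on leaving out 1 library: without replicate 3 of shNT 5% CO2 or replicate 3 of shNR4A3 5% CO2 (adjusted p = 0.0955 and 0.0916) and without replicate 3 of shNT 5% CO2 + LPS or replicate 3 of shNR4A3 5% CO2 + LPS (adjusted p = 0.0978 and 0.12) at 5% CO2, and without replicate 1 or 3 of shNT 10% CO2 or replicate 3 of shNR4A3 10% CO2 (adjusted p = 0.188, 0.199 and 0.248) and without replicate 3 of shNR4A3 10% CO2 + LPS (adjusted p = 0.0581) at 10% CO2. FPR2 was lower in basal shNR4A2 cells (-1.10 and -1.11 at 5% and 10% CO2), and in shNR4A3 cells at 5% CO2 with LPS (-1.47) and 10% CO2 without (-1.32). Only the last did not rest on any single library, the others being lost without replicate 1 or 3 of shNT 5% CO2 or replicate 2 or 3 of shNR4A2 5% CO2 (adjusted p = 0.0785 to 0.161), without replicate 1 of shNT 10% CO2 or replicate 3 of shNR4A2 10% CO2 (adjusted p = 0.0716 and 0.0575) and without replicate 2 of shNT 5% CO2 + LPS or replicate 3 of shNR4A3 5% CO2 + LPS (adjusted p = 0.0604 and 0.0657). PLA2G7 was higher with LPS at 10% CO2 in shNR4A2 (1.04) and shNR4A3 cells (1.28), both lost without replicate 3 of shNT 10% CO2 + LPS (adjusted p = 0.0529 and 0.0581). PTGER1, for the EP1 receptor, was higher in basal shNR4A2 cells at 5% (1.03) and 10% CO2 (1.24), calls lost without any 1 replicate of shNT 5% CO2 or replicate 3 of shNR4A2 5% CO2 (adjusted p = 0.0604 to 0.109) and without replicate 1 or 2 of shNT 10% CO2 or replicate 3 of shNR4A2 10% CO2 (adjusted p = 0.0809, 0.0589 and 0.157).

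The knockdown lines were also compared with each other, in a comparison added after values were seen. Of the 10 members edgeR called 0 and 0 at 5% CO2 without and with LPS, where 2.7% and 2.25% of all genes were called, and 1 and 1 at 10% CO2, against 7.56% and 6.04%. At 5% CO2, 2 and 3 members had an unadjusted p under 0.05 and DESeq2 called 0 and 0. Of all 17720 genes, 2412 and 2927 had an unadjusted p under 0.05 there, and DESeq2 called 643 and 698 genes. With the replicate number as a block 2 and 5 members were called at 5% CO2, where same-numbered libraries deviated together, and 4 and 4 at 10% CO2. The block called 1992, 3810, 3673 and 2876 of the 17720 genes in the same order. PTGER4 was the member called in both states at 10% CO2 without the block, lower in shNR4A2 than in shNR4A3 cells (-0.36 ± 0.09 without and -0.37 ± 0.10 with LPS, adjusted p = 0.0225 and 0.0436). The call was lost without replicate 3 of shNR4A2 10% CO2 or any 1 replicate of shNR4A3 10% CO2 (adjusted p = 0.0571 to 0.118), and with LPS without replicate 2 or 3 of shNR4A2 10% CO2 + LPS or any 1 replicate of shNR4A3 10% CO2 + LPS (adjusted p = 0.0673 to 0.195).

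Whether the responses themselves differed between lines or CO2 levels was tested as an interaction. For the LPS response of each knockdown line against shNT (4 comparisons of 10 members) edgeR called 0, with 1 at an unadjusted p under 0.05 and 0 by DESeq2. For the CO2 response (4 comparisons) it called 0, with 0 at an unadjusted p under 0.05 and 0 by DESeq2. For the LPS response at 10% against 5% CO2 (3 lines) it called 0, with 1 at an unadjusted p under 0.05 and 0 by DESeq2. The share of all genes called was 0% to 0.198% in the comparisons of LPS responses between lines (0.0451% and 0.198% in the 2 above 0), 0% in those of CO2 responses, and 0.0226% in shNT and 0% in both knockdown lines for LPS at 10% against 5% CO2. Per comparison, 392 to 1390, 192 to 458 and 904 to 1024 of the 17720 genes had an unadjusted p under 0.05 in the 3 kinds of interaction. DESeq2 called 2 to 99, 0 and 8 to 53 genes. The larger LPS response of PTGER2 in shNR4A3 cells at 5% CO2 had an unadjusted p of 0.0195 (log2 difference 1.82 ± 0.65, adjusted p = 0.9996), and the smaller response of PTGER4 at 10% CO2 in shNR4A3 cells an unadjusted p of 0.0457 (-0.38 ± 0.18, adjusted p = 0.877). For PTGS2 the 95% interval of the difference in LPS response from shNT was -1.03 to 0.90 and -1.26 to 0.03 in shNR4A2 cells at 5% and 10% CO2, and -1.02 to 1.29 and -0.97 to 0.63 in shNR4A3 cells. For the CO2 response of PLA2G4A the intervals were -0.95 to 0.68 and -0.91 to 0.33 in shNR4A2 cells without and with LPS, and -0.86 to 0.39 and -0.57 to 0.39 in shNR4A3 cells. The widest of these intervals for PTGS2 passes 1 log2 unit on both sides. The 44 other pathway genes gave 0 calls in these 11 comparisons, 8, 3 and 12 tests at an unadjusted p under 0.05 in the 3 kinds of interaction, and 0, 0 and 1 calls by DESeq2. They are to be read against the numbers of all genes given for the same interactions.

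Across the 12 conditions the mean log2 CPM of PTGS2 followed that of PTGER4 (Pearson r = 0.98) and PTGER2 (r = 0.98), all of which step up with LPS. These are descriptions over 12 points that share lines and libraries. The 5 genes most like PTGS2 in this measure among those tested were CCL20, CCL3, NFKBIZ, NCOA7 and CCL4 (r = 0.9975 to 0.9981), of which CCL20, CCL3 and CCL4 encode chemokines and NFKBIZ an inhibitor-like nuclear regulator of NF-κB targets. The 5 most like ALOX5 were IQGAP3, RASAL2, EPS15, PDCD4 and HNRNPDL (r = 0.935 to 0.964).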

How the data were processed

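RNA from 36 libraries of THP-1 cells (3 hairpin lines, 5% or 10% CO2, without or with LPS, 3 replicates) had been sequenced by the study as polyadenylated RNA. Before depositing the files the authors used Trimmomatic 0.36 for trimming and STAR 2.5.2b for alignment to GRCh38, and made counts per gene with featureCounts of Subread 1.5.2. The deposited counts are whole numbers without normalization, 1 library per file. The annotation release and strand setting are not given in the sources used here. Groups came from the sample labels. Gene symbols were matched by Ensembl ID (56410 of 57500, 98.1%). The members and lists were chosen with earlier results of these data known.

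Genes passing filterByExpr (minimum count 10, minimum total 15) over the 12 conditions were tested (17720). Each comparison used its own libraries, TMM scaling and the robust quasi-likelihood F test of edgeR 4.0.16 (R 4.3.3), with Benjamini-Hochberg adjustment over all genes tested, and called means an adjusted p below 0.05. The SE of a log2 fold change is its size over the square root of F, and 95% intervals use the normal approximation. The authors' methods name DESeq2's Wald test, which served as an alternative (DESeq2 1.42.0). TPM was computed from counts and gene lengths and is not TMM-scaled, so TPM ratios differ from fitted fold changes. The direct comparison of shNR4A2 with shNR4A3 was added after values were seen. The tests were also run on simulated counts with no shared effect of replicate number, and no result given here draws on that run.

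Beside the 10 members, genes were named from a list of 57 by a rule: called, no overlap between groups, ordered by the largest absolute log2 fold change, up to 6 for LPS and 4 for each other kind of comparison. AKR1C3 and TBXAS1 fall outside it and were named after their values were seen. Replicate pairs of 1 condition differed by more than sampling noise (chi-square per degree of freedom 5.98 to 26.2 in 36 pairs), so none was counted as 1 sample. The replicate numbers are shared by the labels of all conditions. Whether they pair the libraries was judged by the correlation of same-numbered libraries' deviations from their condition means, over all genes tested, and every r passed 0.1 in 9 comparisons: LPS in shNR4A2 cells at 5% CO2 and in shNR4A3 cells at both CO2 levels, CO2 in basal shNR4A2 cells, shNR4A2 against shNT at 5% CO2 in both states, shNR4A3 against shNT at 5% CO2 with LPS, and shNR4A2 against shNR4A3 at 5% CO2 in both states. Over the genes averaging at least 10 CPM, every r passed 0.1 in 8 further comparisons, so the answer there depends on the genes used. Blocked p-values of single genes are given beside results in the 9 comparisons only. Other alternatives were scaling by library totals alone, RLE size factors, testing without the filter, 1 fit to all 36 libraries, an adjusted p under 0.01 and leaving out each library.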

Additional observations from a re-analysis of the deposited data

Results flagged for a closer look

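In the direct comparison of the knockdown lines edgeR called 2, 4, 6 and 4 of the 44 other pathway genes. The order is 5% CO2 without and with LPS, then 10% CO2, where 2.7%, 2.25%, 7.56% and 6.04% of all genes were called. Of the 44, 2, 2, 3 and 4 were higher and 0, 2, 3 and 0 lower in shNR4A2 than in shNR4A3 cells. The 10 results described here are 2 for PTGER4 and those of 2 pathway genes picked after their values were seen. At 10% CO2 without LPS the EP4 receptor gene was lower in shNR4A2 cells (116, 118 and 104 TPM) than in shNR4A3 cells (149, 136 and 144 TPM), a log2 fold change of -0.36 ± 0.09 (edgeR, adjusted p = 0.0225). With LPS it was at 555, 514 and 463 TPM against 678, 625 and 679.9 TPM, a log2 fold change of -0.37 ± 0.10 (adjusted p = 0.0436). All 3 shNR4A2 libraries lay below the 3 shNR4A3 libraries in both states, where 25.6% and 23.7% of all genes did not overlap. These calls rest on single libraries as given above. ALOX5AP with LPS at 10% CO2 was called without replicate 1 of shNR4A2 10% CO2 + LPS (log2 fold change -0.48, adjusted p = 0.00315).

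At 5% CO2 same-numbered libraries deviated together, and with the replicate number as a block PTGS1 and PTGER4 were called without LPS (adjusted p = 0.0146 and 0.00364), and PTGS1, PTGER2, PTGER4, ALOX5 and ALOX5AP with LPS (adjusted p = 0.00215, 0.0189, 0.000101, 0.00112 and 0.0299). The fitted PTGER4 differences at 5% CO2 were -0.34 ± 0.12 and -0.41 ± 0.26 without and with LPS.

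The other 8 results concern 2 synthesis genes from the wider list. AKR1C3, encoding an aldo-keto reductase that makes prostaglandin F2α, was higher in shNR4A2 than in shNR4A3 cells, by a log2 fold change of 1.37 ± 0.19 and 1.80 ± 0.22 at 5% CO2 without and with LPS and 1.53 ± 0.15 and 1.64 ± 0.15 at 10% CO2 (adjusted p = 1.82e-05 to 0.00337). TBXAS1, encoding thromboxane A synthase, differed by 1.17 ± 0.15, 1.28 ± 0.17, 1.44 ± 0.10 and 1.21 ± 0.13 in the same order (adjusted p = 6.17e-07 to 0.00526). In all 8 the 3 shNR4A2 libraries lay above the 3 shNR4A3 libraries, while 18.7% to 25.6% of all genes did not overlap in these comparisons. Against shNT, AKR1C3 was called higher in shNR4A2 cells in all 4 states (0.79 to 1.18) and lower in shNR4A3 cells at 10% CO2 without (-0.74, a call lost without replicate 2 of shNR4A3 10% CO2 (adjusted p = 0.0554)) and with LPS (-0.68, lost without replicate 3 of shNT 10% CO2 + LPS (adjusted p = 0.0953)). TBXAS1 was called higher in shNR4A2 cells in all 4 states (0.79 to 0.96), a call lost at 5% CO2 with LPS without replicate 2 or 3 of shNT 5% CO2 + LPS or replicate 1 of shNR4A2 5% CO2 + LPS (adjusted p = 0.0727, 0.0752 and 0.0664), and lower in shNR4A3 cells at 10% CO2 without LPS (-0.47), lost without replicate 2 of shNT 10% CO2 or any 1 replicate of shNR4A3 10% CO2 (adjusted p = 0.0873, 0.0731, 0.109 and 0.0549). The comparisons with shNT share its libraries, and AKR1C3 has close paralogues between which reads could be split.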

How the results depend on the processing

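The count of members called with LPS was 23 over 6 comparisons and 20 to 33 under the 7 alternatives, or 21 to 25 without 1 library. For CO2 within lines the count of 4 became 8 by DESeq2, 10 without the filter, 10 with the replicate block and 1 at an adjusted p under 0.01, and 3 to 6 without 1 library. CO2 averaged over lines gave 9, with 7 to 12 under alternatives and 8 to 10 without 1 library. For knockdown against shNT the count of 24 became 41 with the replicate block and 13 at an adjusted p under 0.01, and 19 to 26 without 1 library. For shNR4A2 against shNR4A3 the count of 2 became 15 with the replicate block and 0 at an adjusted p under 0.01, and 1 to 3 without 1 library. The LPS response at 10% against 5% CO2 gave 0, and 1 without the filter (PTGER4 in shNT cells, log2 difference -0.51, adjusted p = 0.0355). The interactions with line gave 0 under every alternative, and all 3 kinds of interaction 0 to 0 without 1 library. Causes of these moves were not tested, beyond the stricter threshold. Counts with the block are to be read against the numbers of all genes called with it, given above. For CO2 averaged over lines the block called 4096 and 6271 of 17720 genes without and with LPS. For CO2 within lines DESeq2 called 43 to 1801 genes per comparison. Where same-numbered libraries deviated together, calls changed by the block are given beside each result, and it changed no other call of a member there. In the other comparisons at least 1 of the 3 correlations over all genes tested was 0.1 or less (the lowest was -0.17). Over the genes averaging at least 10 CPM the lowest was -0.41, but all 3 passed 0.1 in 8 of those comparisons, where the data thus leave it undecided whether the numbers pair the libraries. With the block the members called there went from 5 to 7 for LPS in shNT cells at 10% CO2 (PTGES3 and ALOX5 added), from 3 to 6 for LPS in shNR4A2 cells at 10% CO2 (PTGES3, ALOX5AP and PLA2G4A), from 4 to 6 for shNR4A2 against shNT at 10% CO2 with LPS (PTGES2 and ALOX5), and, for shNR4A3 against shNT, from 1 to 4 at 5% CO2 without LPS (PTGS1, PTGES3 and ALOX5AP), from 2 to 6 at 10% CO2 without LPS (PTGES3, ALOX5, ALOX5AP and PLA2G4A) and from 5 to 5 with LPS. For shNR4A2 against shNR4A3 at 10% CO2 they went from 1 to 4 without LPS (PTGS1, PTGES3 and ALOX5) and from 1 to 4 with LPS (PTGS1, ALOX5 and ALOX5AP). No called member value changed direction under any alternative run. Depth limits PTGER2 without LPS (0 to 9 counts) and PTGES (1 to 30 counts): fold changes of these genes rest on few reads. The same holds for PTGFR (0 to 28 counts) and for the lowest libraries of PTGIR, FPR2 and PLA2G7 in the wider list.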
